A study of Mus musculus with 24 samples.

Results

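Metallothioneins are small, cysteine-rich proteins that bind zinc and copper, and their genes are among the strongest responders to free zinc. The 6 genes described here are 3 metallothioneins (Mt1, Mt2 and Mt3), the zinc sensor Mtf1 and the zinc transporters Slc30a1 and Slc39a14. They were picked by symbol from a table of 25229 genes, with earlier results of these data known. All 6 were found, 5 of them passed the filter on low counts and were tested, and Mt3 did not.

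The study asked how inhaled benzene and pressure overload together alter cardiac gene expression. In transverse aortic constriction (TAC) the aortic arch is narrowed, so that the left ventricle pumps against a higher load, and sham surgery is its control. Male C57BL/6 mice had either operation, recovered for 1 week, and spent the next 6 weeks breathing benzene at 50 ppm or air passed through a HEPA filter, 6 hours daily on 5 days of each week. Poly-A RNA of the left ventricle and septum was sequenced in 4 groups of 6 libraries: Sham/Air, Sham/Benzene, TAC/Air and TAC/Benzene. The age of the mice was not given in the labels. The labels do not name the mouse behind a library, so p-values measure the spread between these samples, which may be technical.

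In textbook accounts, zinc that enters a cell is sensed by MTF1, the zinc finger protein made by Mtf1. MTF1 then binds metal response elements in the promoters of Mt1, Mt2 and Slc30a1. The metallothioneins buffer the metal, ZnT1 (Slc30a1) exports it across the plasma membrane, and ZIP14 (Slc39a14) imports zinc, iron and manganese. Mt1 and Mt2 are also known to respond to glucocorticoids, to interleukin 6 signalling through STAT3 and to oxidative stress.

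Library totals ran from 4170660 to 14632231 counts. Sham/Air replicate 1 stood apart: it had the lowest total, and its rank correlation with the other 23 libraries was 0.852 to 0.913, against 0.963 to 0.996 among those 23. Its summed cardiomyocyte markers stood at 92066 CPM (counts divided by the scaled library size), its fibroblast markers at 3553 and its endothelial markers at 3047. In the other 5 Sham/Air libraries these sums were 63951 to 69538, 1666 to 2040 and 1813 to 1922. Heart muscle markers were high in all 24 libraries, the lowest sum being 41831 CPM. The members' main results that rest on Sham/Air, and the list counts that move by over 1.5 times, are given with and without this library. Levels and their spread are given with it only. Leaving it out also raised the calls over all genes. With TAC in air, 1652 of 13665 tested genes were then higher and 1517 lower, against 1195 and 998 of 13571 with it. With TAC in benzene these were 1864 and 1803, against 1176 and 1081. For benzene after TAC they were 121 and 113, against 40 and 39.

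The promoter windows of Mt1, Mt2 and Slc30a1 are shown because the same zinc sensor is known to act on all 3 genes, while their levels in these hearts moved differently. The windows run from 250 bases before to 50 bases after a RefSeq start on GRCm38.p6, all on the plus strand. The core of the metal response element was searched as TGCACNC or TGCGCNC on both strands, and capitals mark the matches. Mt1 is at chr8:94178839-94179138, Mt2 at chr8:94172368-94172667 and Slc30a1 at chr1:191906531-191906830.
Mt1: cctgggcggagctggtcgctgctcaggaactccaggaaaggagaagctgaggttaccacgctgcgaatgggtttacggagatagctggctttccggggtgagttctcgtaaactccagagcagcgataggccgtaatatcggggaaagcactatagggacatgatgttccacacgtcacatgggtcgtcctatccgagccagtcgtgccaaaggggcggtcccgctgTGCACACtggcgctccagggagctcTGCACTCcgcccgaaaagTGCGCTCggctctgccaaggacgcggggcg
Mt2: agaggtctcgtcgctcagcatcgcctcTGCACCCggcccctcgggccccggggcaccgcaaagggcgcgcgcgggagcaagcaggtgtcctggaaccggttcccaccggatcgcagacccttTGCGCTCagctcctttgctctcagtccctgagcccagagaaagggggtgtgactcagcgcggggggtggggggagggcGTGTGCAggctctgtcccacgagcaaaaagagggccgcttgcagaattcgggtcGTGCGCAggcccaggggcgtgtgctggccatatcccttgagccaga
Slc30a1: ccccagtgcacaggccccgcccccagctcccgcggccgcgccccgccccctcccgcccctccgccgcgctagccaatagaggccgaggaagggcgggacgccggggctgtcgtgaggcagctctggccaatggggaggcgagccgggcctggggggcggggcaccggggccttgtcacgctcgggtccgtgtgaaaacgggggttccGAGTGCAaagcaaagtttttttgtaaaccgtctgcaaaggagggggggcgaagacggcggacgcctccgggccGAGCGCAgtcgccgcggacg

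The Mt1 window held 3 cores, starting 23 bases before and 3 and 21 bases after the start. The Mt2 window held 4 cores, 3 of them upstream, and the Slc30a1 window held 2. At least 1 core in either form was found in 25.7% of the 32851 RefSeq promoter windows of this length, at least 2 in 7.11%, at least 3 in 1.97% and at least 4 in 0.517%. The window of Mt3 held 1 core and that of Mtf1 held 0. The antioxidant element, searched as TGACNNNGC on both strands, was found once each in the Mt2 and Slc30a1 windows and in 12.4% of all windows. The STAT motif TTCNNNGAA and the E-box CACGTG were found in none of the 5 members' windows, and in 8.30% and 7.15% of all windows. None of the 12 matches overlapped another. A match is a description of letters and does not show binding. Mt4, Mt3, Mt2 and Mt1 are neighbours on chromosome 8 in that annotation.

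Levels are given in CPM with library sizes scaled by TMM, which corrects for differences in RNA composition. Mt1 was the member with the highest level. Its lowest, median and highest CPM were 73.6, 175.0 and 188 in Sham/Air, 172, 189 and 274 in Sham/Benzene, 151, 168 and 179.7 in TAC/Air, and 224, 257 and 335 in TAC/Benzene. Every TAC/Benzene library lay above every TAC/Air library, whereas TAC/Benzene and Sham/Benzene overlapped. The low Sham/Air value was that of replicate 1, and the high Sham/Benzene value was also that of replicate 1.

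Mt2 had the clearest separation. Its lowest, median and highest CPM were 7.39, 26.9 and 31.5 in Sham/Air, 23.2, 33.9 and 49.6 in Sham/Benzene, 27.3, 34.9 and 42.5 in TAC/Air, and 62.9, 70.3 and 83.4 in TAC/Benzene. The lowest TAC/Benzene library was above the highest library of each of the other 3 groups. Those 3 groups overlapped one another. Sham/Air replicate 1 was the lowest of all 24, with 7.39 CPM.

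Slc39a14, the metal importer, also had its lowest mean in Sham/Air (67.5 ± 11.1 CPM) and its highest in TAC/Benzene (89.8 ± 4.12 CPM; SD, n = 6 each). The lowest, median and highest CPM of Slc39a14 were 46.6, 72.0 and 75.9 in Sham/Air, 59.4, 79.9 and 85.7 in Sham/Benzene, 68.0, 76.8 and 82.0 in TAC/Air, and 85.8, 88.7 and 96.1 in TAC/Benzene. TAC/Benzene held the highest values of Slc39a14, just above the top Sham/Benzene library. Its lowest values in Sham/Air and in Sham/Benzene were both those of replicate 1.

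The group means of Slc30a1 and Mtf1 lay close together. Slc30a1, the exporter, had means of 45.9 ± 5.29 CPM in Sham/Air, 45.3 ± 5.63 in Sham/Benzene, 45.5 ± 4.64 in TAC/Air and 45.8 ± 4.44 in TAC/Benzene (SD, n = 6 each). Mtf1, the sensor, had means of 23.5 ± 2.18, 24.1 ± 4.05, 23.4 ± 2.38 and 22.7 ± 2.32 CPM in the same order. Groups overlapped in every comparison of both genes. Mt3, known mainly from brain, had 0 to 15 counts per library and none in Sham/Air replicate 1 and TAC/Air replicate 4. At those depths 0 counts allow up to 0.719 and 0.247 CPM. These limits cover counting error only, and differences in Mt3 were not tested.

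**Figure D1:**
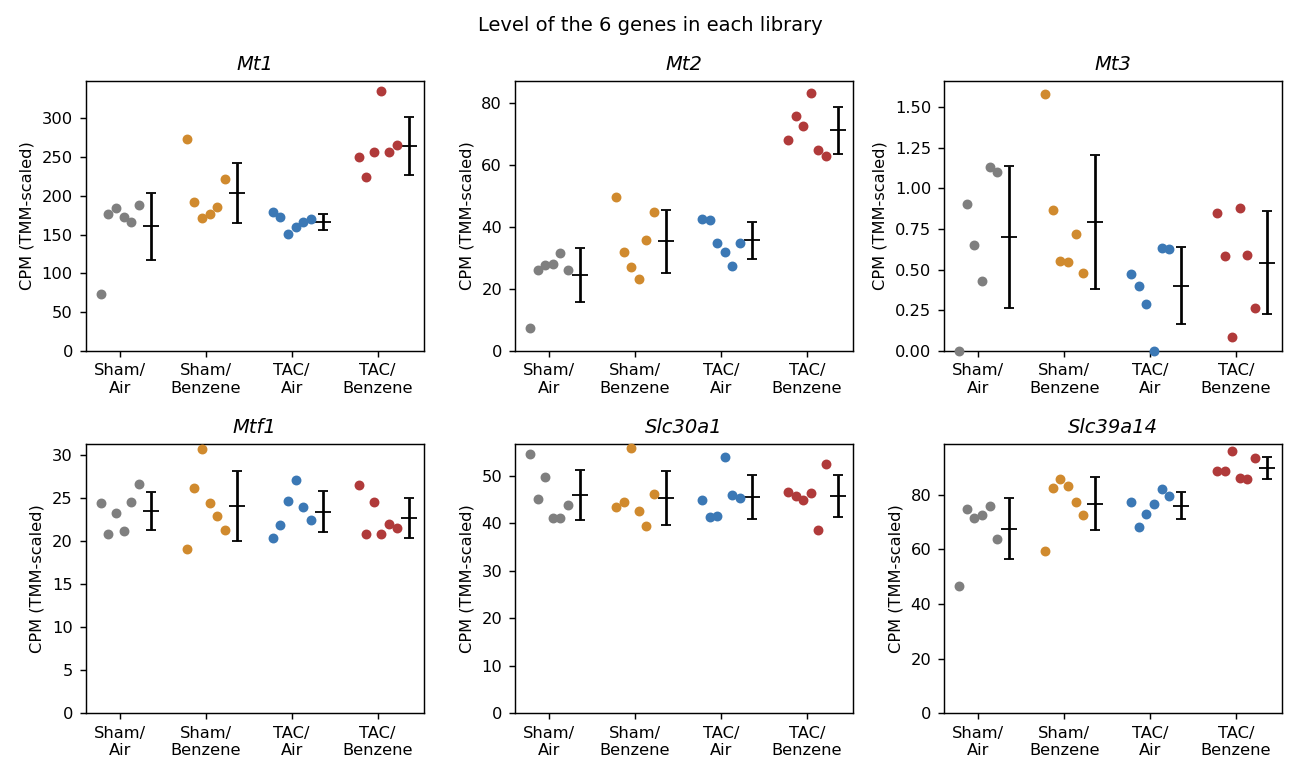
Level of the 6 genes in each of the 24 libraries, in TMM-scaled CPM on axes that start at 0, by group; points are libraries in order of replicate number and the bar is the mean ± SD. Mt2 in TAC/Benzene, from 62.9 to 83.4 CPM, sits above all other libraries, while the groups of Slc30a1 and of Mtf1 overlap.

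Per kilobase of the longest annotated transcript, which allows levels of different genes to be compared, Mt1 had the highest mean and Mt2 the next in every group. The mean level of Mt1 was 148 CPM per kilobase in Sham/Air and 244 in TAC/Benzene, and that of Mt2 was 47.9 and 139.5. Slc39a14 (13.2 and 17.5 CPM per kilobase), Slc30a1 (8.75 and 8.73), Mtf1 (3.08 and 2.97) and Mt3 (1.31 and 1.01) followed. The per-kilobase ranges of Mt2 and Slc39a14 overlapped in Sham/Air, where the lowest Mt2 library, replicate 1, was at 14.5 and the highest Slc39a14 library at 14.8 CPM per kilobase. Those of Slc39a14 and Slc30a1 overlapped in the same group, where the lowest Slc39a14 library was at 9.11 and the highest Slc30a1 library at 10.4 CPM per kilobase. Those of Mtf1 and Mt3 overlapped in Sham/Benzene, at 2.50 and 2.95 CPM per kilobase. The metallothionein transcripts are short, at 1085 bases for Mt1 and 511 for Mt2, so these ratios depend on the transcript model.

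In benzene-exposed against air-exposed mice after TAC, 2 of the 5 tested members rose, Mt1 and Mt2, and none fell. The background was 0.295% of all 13571 tested genes called higher in this comparison and 0.287% called lower. Mt2 went from 35.7 ± 5.93 to 71.3 ± 7.61 CPM (SD, n = 6 each), a log2 fold change of 1.00 ± 0.20 (SE; edgeR quasi-likelihood test, Benjamini-Hochberg adjusted p = 0.0153). The 95% interval of the Mt2 fold was 1.49 to 2.68. Mt1 went from 166 ± 10.02 to 265 ± 37.2 CPM, a log2 fold change of 0.67 ± 0.16 with an edgeR adjusted p of 0.0461. Mt1 was the last of the 79 genes called in this comparison when ranked by p, and Mt2 was number 46. The Mt1 call was lost when any 1 of 22 of the 24 libraries was left out, with an adjusted p of up to 0.16. It was also lost without the filter on low counts (0.0707). It was kept when the library left out was Sham/Air replicate 1 (1.05e-04) or Sham/Benzene replicate 1 (0.0356), and the Mt2 call was lost without TAC/Air replicate 5 (0.0552).

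The 3 other members did not pass the test in that comparison. The log2 fold change of Slc39a14 was 0.24 ± 0.10, with an edgeR adjusted p of 0.619, although its TAC/Benzene libraries did not overlap the TAC/Air libraries. Slc39a14 was called higher by limma-voom (adjusted p = 0.0312), in a fit of only the 2 groups (edgeR adjusted p = 0.0429) and with GC content and length offsets on 23 libraries (edgeR adjusted p = 0.0262). Groups were fully separated in the higher direction for 3 of the 5 tested members, Mt1, Mt2 and Slc39a14, against 1.50% of all tested genes. Slc30a1 had a log2 fold change of 0.01 ± 0.10, and the 95% interval of its fold was 0.877 to 1.16. Mtf1 had a log2 fold change of -0.04 ± 0.11.

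In TAC against sham among benzene-exposed mice, 1 of the 5 tested members rose, Mt2, against 8.67% of all tested genes called higher and 7.97% called lower. Mt2 went from 35.4 ± 10.2 to 71.3 ± 7.61 CPM, a log2 fold change of 1.01 ± 0.21 (edgeR adjusted p = 7.32e-04), and the 95% interval of its fold was 1.51 to 2.71. Mt1 had means of 204 ± 38.6 and 265 ± 37.2 CPM and a log2 fold change of 0.38 ± 0.16, which did not pass (edgeR adjusted p = 0.11). Slc39a14 had 0.23 ± 0.10 on the same scale and did not pass either (edgeR adjusted p = 0.143). Libraries of Mt2 and Slc39a14 did not overlap between these groups, as for 7.62% of all tested genes in the higher direction. Without Sham/Air replicate 1, which is in neither group but enters the shared estimate of the spread, 3 members were called: Mt2, Mt1 (0.38 ± 0.10, edgeR adjusted p = 0.00334) and Slc39a14 (0.23 ± 0.07, edgeR adjusted p = 0.022). In that fit 1864 of 13665 genes were called higher and 1803 lower, in place of 1176 and 1081 of 13571. Without Sham/Benzene replicate 1, 2 members were called, beside 1034 higher and 958 lower of 13668 genes.

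In air, TAC against sham called 0 of the 5 tested members, against 8.81% of all tested genes called higher and 7.35% called lower. At an unadjusted edgeR p under 0.05 it was 1 member, Mt2, and DESeq2 and limma-voom called 0. Mt2 had means of 24.5 ± 8.61 CPM in sham and 35.7 ± 5.93 CPM after TAC, a log2 fold change of 0.51 ± 0.21 (edgeR adjusted p = 0.101). Mt1 had means of 160 ± 43.2 and 166 ± 10.02 CPM and a log2 fold change of 0.05 ± 0.16. Leaving out Sham/Air replicate 1, these changes were 0.35 ± 0.15 for Mt2 (edgeR adjusted p = 0.0938) and -0.09 ± 0.10 for Mt1, so the direction of Mt1 turned with that library. Groups of all 5 overlapped, while 5.78% of all tested genes were fully separated in the higher direction. With per-library offsets for GC content and length, Mt2 was called (edgeR adjusted p = 0.0132).

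In sham mice, benzene against air called 0 of the 5 tested members, against 0.00737% of all tested genes called higher and 0.0147% called lower. Mt1 had a log2 fold change of 0.34 ± 0.16 and Mt2 of 0.50 ± 0.21, both with an edgeR adjusted p of 0.819. The log2 fold changes without Sham/Air replicate 1 were 0.20 ± 0.10 for Mt1 and 0.33 ± 0.15 for Mt2. The count was 2 members, Mt1 and Mt2, at an unadjusted edgeR p under 0.05, and DESeq2 and limma-voom called 0. The groups of all 5 overlapped here too, and 0.162% of all tested genes were fully separated in the higher direction.

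Whether benzene acted differently after TAC was tested as an interaction, and 0 of the 5 tested members passed, against 0.0663% of all tested genes called higher and 0.103% called lower. At an unadjusted edgeR p under 0.05 the count was also 0, and DESeq2 and limma-voom called 0. The interaction was 0.50 ± 0.29 for Mt2 and 0.33 ± 0.22 for Mt1 on the log2 scale (edgeR adjusted p = 1.00 for both). A larger benzene difference after TAC than after sham is therefore not shown for either gene. On the 23 libraries other than Sham/Air replicate 1 the interaction was 0.66 ± 0.20 for Mt2 and 0.47 ± 0.14 for Mt1, with edgeR adjusted p-values of 0.228 and 0.194.

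**Figure D2:**
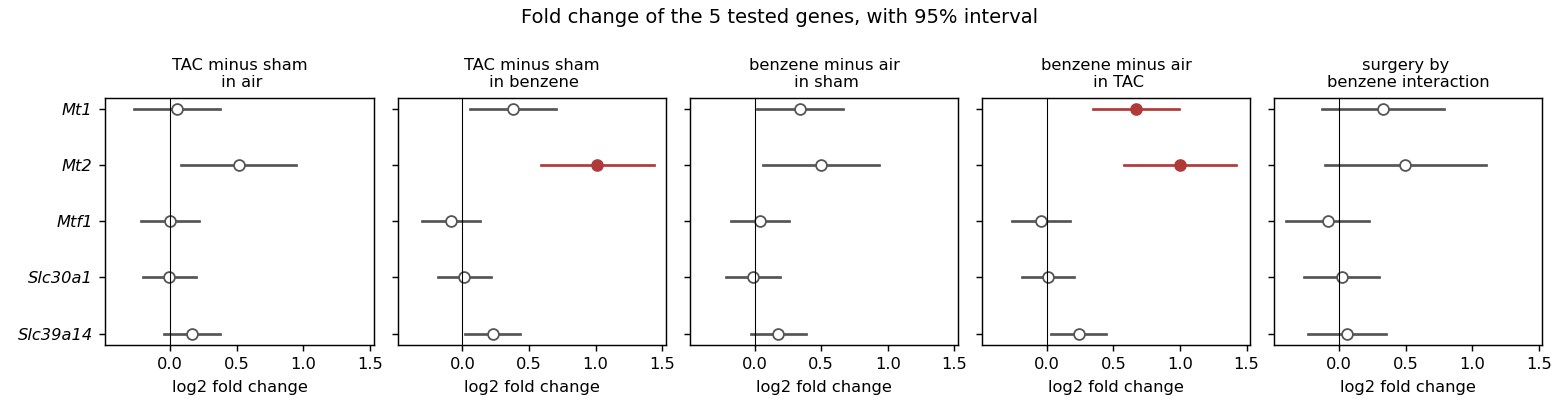
Log2 fold change of the 5 tested genes in the 5 comparisons, with 95% intervals; filled points passed the edgeR test at an adjusted p under 0.05. Mt2 passed in TAC against sham in benzene (1.01) and in benzene against air after TAC (1.00), and Mt1 in the latter (0.67).

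The ratio between the metallothionein genes also shifted. Mt2 counts as a share of Mt1 plus Mt2 counts do not depend on library size. Mt1 and Mt2 are related in sequence, and how reads that fit both were counted is not given in the sources used here. The share was 12.8% ± 2.23 in Sham/Air, 14.6% ± 1.90 in Sham/Benzene, 17.6% ± 2.07 in TAC/Air and 21.3% ± 2.18 in TAC/Benzene (SD, n = 6 each). All 6 TAC/Benzene libraries, from 19.2% to 25.2%, were above all sham libraries, whose highest was 16.8%.

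The share of Mt2 was 6.71 percentage points higher after TAC than after sham in benzene (two-sided exact permutation test over 924 splits, p = 0.00216, the smallest it can give; 0.00577 adjusted over 4 comparisons). In air the difference was 4.73 points (exact permutation p = 0.00433, adjusted 0.00577), and 3.99 points without Sham/Air replicate 1 (adjusted 0.0144). Benzene against air differed by 3.75 points after TAC (exact permutation p = 0.00433, adjusted 0.00577). After sham surgery the difference was 1.78 points, which was within the spread (exact permutation p = 0.171). As the genes were chosen with these comparisons known, the share is not independent evidence of the change in Mt2. TAC/Air replicates 1 to 3 had shares of 18.8% to 19.7% and replicates 4 to 6 of 14.1% to 17.0%. The rank correlation of a library's deviations with GC content was 0.513 to 0.539 in the former and -0.531 to -0.156 in the latter. With GC content and length offsets the differences were 6.84 points for TAC in benzene, 4.71 for TAC in air and 3.41 for benzene after TAC.

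**Figure D3:**
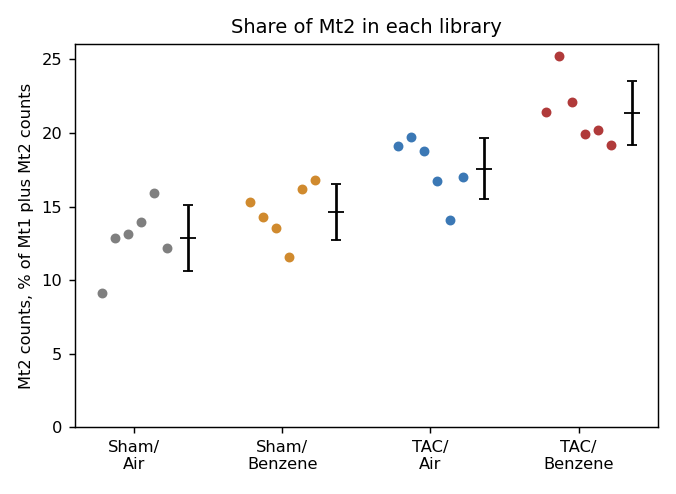
Mt2 counts as a percentage of Mt1 plus Mt2 counts in each of the 24 libraries, on an axis that starts at 0; bars are the mean ± SD of 6 libraries. The means go from 12.8% in Sham/Air to 21.3% in TAC/Benzene.

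Mt1 and Mt2 varied together within groups. Over 24 libraries, their deviations from the group means in log2 CPM had a Pearson r of 0.895 (permutation p = 1e-05, the smallest that 100000 resamples can give) and a Spearman rho of 0.746 (p = 6e-05, permutation). When Sham/Air replicate 1 and Sham/Benzene replicate 1 were left out, the 2 libraries farthest from the median of Mt1, r was 0.684 and rho 0.67 over 22 libraries (permutation p = 5e-04 and 8.8e-04). An r this high is not particular to the pair. Over all 24 libraries, the deviations of Nek3, Ly6c1, Msrb1 and Capns1 had r of 0.906, 0.902, 0.842 and 0.834 with those of Mt1. These genes were picked as the most like Mt1, as described in the next paragraph. The SD of log2 CPM about the group means was 0.46 for Mt2 and 0.31 for Mt1, against 0.15 for Slc30a1, 0.17 for Mtf1 and 0.18 for Slc39a14. Mt2 was at the 90.1st percentile of 4720 genes of like level, whose median SD was 0.24, and Slc30a1 at the 19.9th percentile of its own. These SDs and percentiles include Sham/Air replicate 1, at 7.39 CPM for Mt2 against 26.0 to 31.5 in the rest of its group. For Mt1 it was at 73.6 against 167 to 188 CPM. The SDs were not taken without that library, but the edgeR fits with and without it can be compared. Leaving it out lowered the SE of the interaction from 0.292 to 0.202 for Mt2 and from 0.222 to 0.138 for Mt1. That SE went from 0.143 to 0.106 for Slc39a14, 0.137 to 0.123 for Slc30a1 and 0.1501 to 0.1457 for Mtf1. The higher SDs of Mt1 and Mt2 therefore rest in part on that library, and how large a part was not computed.

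Genes with the pattern most like each member were ranked by Pearson r of log2 CPM over the 24 libraries among 12514 candidates, as a description with no test. Differences in depth and between groups enter this measure, and r was taken again over the 23 libraries other than Sham/Air replicate 1. For Mt1 they were Ly6c1 (r = 0.923), an endothelial and monocyte surface protein, Nek3 (0.849), Capns1 (0.835) and Msrb1 (0.833). For Mt2 they were Cyp2u1 (0.898), Ly6c1 (0.896), Ctsa (0.896) and Slc35f6 (0.892). On those 23 libraries, the r of Nek3, Capns1 and Msrb1 with Mt1 was 0.738, 0.641 and 0.633. That of Ly6c1 was 0.878 with Mt1 and 0.859 with Mt2. For Cyp2u1, Ctsa and Slc35f6 it was 0.832, 0.808 and 0.809 with Mt2. For Slc30a1 they were Smarcad1 (0.820), Zfp81 (0.808), Bmpr1a (0.798) and Ireb2 (0.795). For Slc39a14 they were Igsf9b (0.893), Thbd (0.890), P4ha2 (0.888) and Atg13 (0.861). On the 23 libraries the r of these 4 with Slc39a14 was 0.791, 0.785, 0.820 and 0.727. That of the 4 genes named for Slc30a1 was 0.791, 0.829, 0.773 and 0.753 in the order given.

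The remaining zinc transporter and metallothionein genes were taken as a list of 23, of which 15 were tested. Mt4 and Slc30a8 had no count in any library. Benzene against air called 0 of the 15 after TAC and 0 of the 15 after sham, with a list median of 0.01 on the log2 scale in both, beside 5.58e-05 and 0.00 over all genes tested. In TAC against sham in air, 1 of 15 rose and 0 fell, and the list median was 0.08, beside -0.01 over all genes. In benzene-exposed mice 2 rose and 1 fell, and the medians were 0.25 and -0.00. Over all tested genes, 8.81% were called higher and 7.35% lower in air, and 8.67% and 7.97% in benzene. Without Sham/Air replicate 1 the counts were 2 higher in air and 6 higher and 1 lower in benzene. Calls over all genes rose as well in that fit, to 1652 higher and 1517 lower of 13665 in air. In benzene they rose to 1864 and 1803. The interaction called 0 of 15. At an unadjusted edgeR p under 0.05, benzene against air gave 0 of 15 after TAC and 1 after sham, and the interaction gave 0. DESeq2 and limma-voom called 0 in these 3 comparisons. For TAC in air limma-voom called 5 higher, where it called 1931 of 13571 genes higher.

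Slc39a6, which encodes the plasma membrane zinc importer ZIP6, rose with TAC in both exposures. The mean CPM of Slc39a6 was 8.23 ± 1.47 in Sham/Air and 9.12 ± 1.21 in Sham/Benzene, against 14.1 ± 0.839 in TAC/Air and 14.1 ± 0.970 in TAC/Benzene. Every TAC library was above the highest sham library. The log2 fold changes of Slc39a6 were 0.81 ± 0.11 in air (edgeR adjusted p = 3.81e-06; 0.89 ± 0.10 without Sham/Air replicate 1) and 0.63 ± 0.10 in benzene (edgeR adjusted p = 5.95e-05). Slc30a4, the vesicular zinc transporter ZnT4, rose in benzene by 0.60 ± 0.16 on the log2 scale (edgeR adjusted p = 0.00865), from 31.8 to 48.2 CPM. In air its log2 fold change with TAC was 0.35, which did not pass (edgeR adjusted p = 0.155). Without Sham/Air replicate 1 it was 0.50 ± 0.14 in air and was called (edgeR adjusted p = 0.00823). Slc39a8, the importer ZIP8, fell in benzene with a log2 fold change of -0.85 ± 0.28 (edgeR adjusted p = 0.0328), at the low mean levels of 1.74 and 0.951 CPM.

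**Figure D4:**
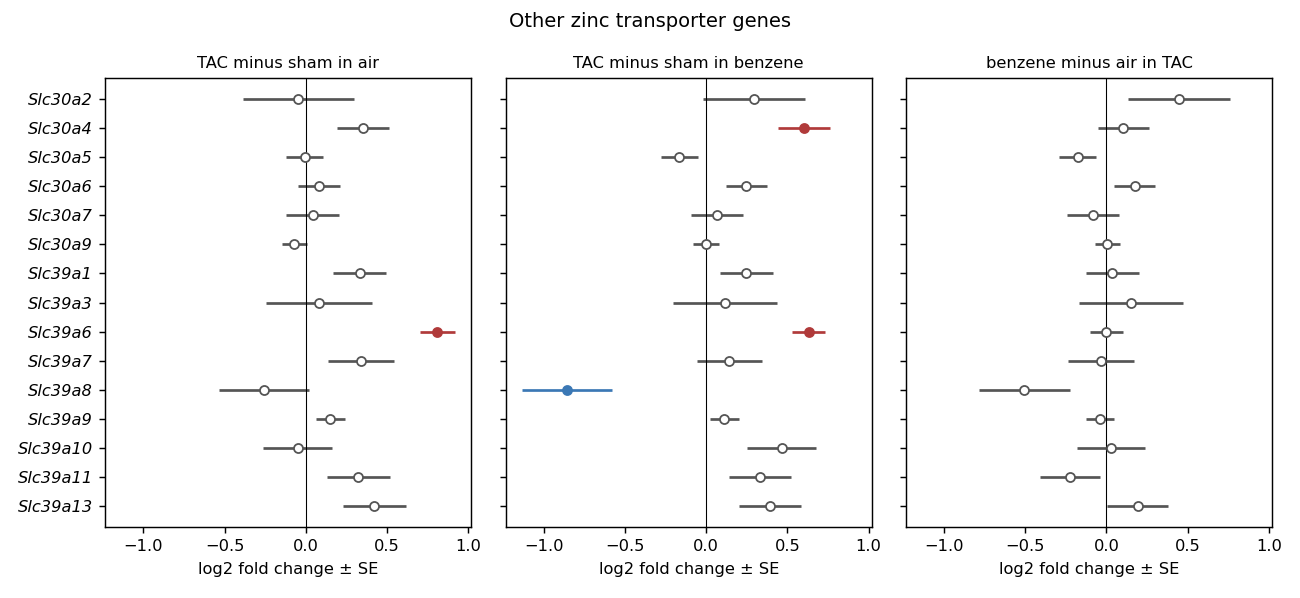
Log2 fold change ± SE of the 15 other tested zinc transporter genes in 3 comparisons; red points were called higher and blue points lower by edgeR. Slc39a6 was called after TAC in air (0.81) and in benzene (0.63), and none was called for benzene against air after TAC.

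Genes of the other signals known to act on metallothioneins were described beside them. Of 13 tested genes of the interleukin 6 and STAT3 response, 2 rose and 0 fell with benzene after TAC, with a list median of 0.28. Over all tested genes, 0.295% were called higher and 0.287% lower there. The 2 genes that rose were Lcn2, an iron-siderophore-binding protein of neutrophils and of the acute phase, and Serpina3n, an acute-phase protease inhibitor. Lcn2 had a lowest, median and highest CPM of 3.78, 5.22 and 6.16 in TAC/Air and 15.3, 17.0 and 20.5 in TAC/Benzene, a log2 fold change of 1.76 ± 0.17 (edgeR adjusted p = 1.16e-06). Serpina3n had means of 117 ± 4.79 and 184 ± 6.49 CPM, a log2 fold change of 0.65 ± 0.13 (edgeR adjusted p = 0.0142). The libraries of both genes were fully separated. With TAC against sham, 5 genes of the list rose and 1 fell in air, and 7 rose and 2 fell in benzene, with list medians of 0.38 and 0.95. Over all tested genes, 8.81% rose and 7.35% fell in air, and 8.67% and 7.97% in benzene. Timp1, an inhibitor of matrix metalloproteinases, rose by 3.10 ± 0.27 in air (2.96 ± 0.23 without Sham/Air replicate 1) and 2.49 ± 0.24 in benzene on the log2 scale. Leaving out that library, 6 genes of the list rose and 2 fell in air, and 10 rose and 2 fell in benzene. Over all genes these were 1652 and 1517 of 13665 in air, and 1864 and 1803 in benzene. Benzene against air called 0 of 13 after sham with edgeR (3 at an unadjusted p under 0.05), DESeq2 and limma-voom. The interaction called 1, Lcn2 (1.97 ± 0.25, edgeR adjusted p = 4.60e-04), beside 0.0663% of all tested genes called higher.

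Of 14 tested glucocorticoid response genes, benzene against air called 0 after TAC and 0 after sham with edgeR, with list medians of 0.11 and 0.07. These were 4 and 5 at an unadjusted edgeR p under 0.05. DESeq2 called 1 higher after TAC and limma-voom 5, and both called 0 after sham. Over all tested genes after TAC, edgeR called 0.295% higher, DESeq2 81 of 14993 and limma-voom 292 of 13571. Without Sham/Air replicate 1, edgeR called 2 of the list higher after TAC, beside 121 of 13665 genes. They were Fkbp5 (0.31 ± 0.08, edgeR adjusted p = 0.0346) and Zbtb16. Fkbp5, a co-chaperone of the glucocorticoid receptor, had an interaction of 0.67 ± 0.12 (edgeR adjusted p = 0.0141). It was the only one of the list called there, beside 0.0663% of all tested genes called higher. Its mean CPM was 30.6 ± 1.60 in Sham/Air, 23.9 ± 2.06 in Sham/Benzene, 31.8 ± 3.93 in TAC/Air and 39.5 ± 3.05 in TAC/Benzene. With TAC, 4 of the list fell in air, among them Sult1a1, Zbtb16 and Hsd11b1, and the list median was 0.01. Without Sham/Air replicate 1 the median was -0.05 and 4 also fell, beside 1517 of 13665 genes. On all libraries, 7.35% of all tested genes fell in air, and 8.67% rose and 7.97% fell in benzene. In benzene 2 of the list rose, Fkbp5 (0.72 ± 0.09) and Cebpd (1.07 ± 0.19), and 2 fell, and the median was -0.19. The edgeR test without Sham/Air replicate 1, and limma-voom on all libraries, called 2 higher and 6 lower there. Over all genes the former called 1864 higher and 1803 lower of 13665, and the latter 2342 and 2155 of 13571.

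Markers of some cell types also differed between TAC/Benzene and TAC/Air, those of neutrophils upwards and those of macrophages downwards. In bulk tissue, fewer cells of a type and less RNA per cell cannot be told apart. Of 8 listed neutrophil markers, 6 were tested and all 6 were called higher with benzene after TAC and after TAC in benzene. Over all tested genes, 0.295% were called higher with benzene after TAC and 8.67% with TAC in benzene. The 8 neutrophil markers summed to 9.84 to 15.04 CPM in TAC/Air and 43.9 to 53.5 CPM in TAC/Benzene. In Sham/Air the sum was 10.7 to 15.8 CPM and in Sham/Benzene 7.40 to 21.9 CPM, and none of the 8 was without a count. A marker that passed the filter on low counts only through TAC/Benzene had to differ, so the count over those tested is a description. The summed 8 macrophage markers were lower in TAC/Benzene (273 to 310 CPM) than in TAC/Air (336 to 393 CPM). The edgeR test called 1 of the 8 lower and 4 without Sham/Air replicate 1, DESeq2 called 3 and limma-voom 4. Over all tested genes, edgeR called 0.287% lower, or 113 of 13665 without that library, DESeq2 77 of 14993 and limma-voom 264 of 13571. Summed cardiomyocyte markers were 43796 to 51913 CPM in TAC/Benzene and 41831 to 51695 CPM in TAC/Air. In Sham/Benzene they were 59991 to 71878 CPM, above every TAC/Benzene library. With TAC in benzene 4 of the 8 cardiomyocyte markers were called lower, beside 7.97% of all tested genes. The part of these cell types in the change of Mt1 and Mt2 was not tested.

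Other markers followed single groups or libraries. The library with the highest Mt1 and Mt2 of Sham/Benzene, replicate 1, also had the highest summed hepatocyte markers, 211 CPM against 64.9 to 107 in the other 5 of its group. Lung epithelium markers summed to 7.10 to 11.6 CPM in Sham/Air and to 0.234 to 2.55 CPM in the other 3 groups. Fibroblast markers summed to 4137 to 4812 CPM in TAC/Air and 3926 to 4508 CPM in TAC/Benzene, above the 1705 to 2159 CPM of Sham/Benzene. Erythroid sums ran from 5.11 to 18.5 CPM and adipocyte sums from 15.9 to 56.6 CPM over all libraries, and Hbb-bs and Hbb-bt had no count. Their part in the metallothionein values was not tested.

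**Figure D5:**
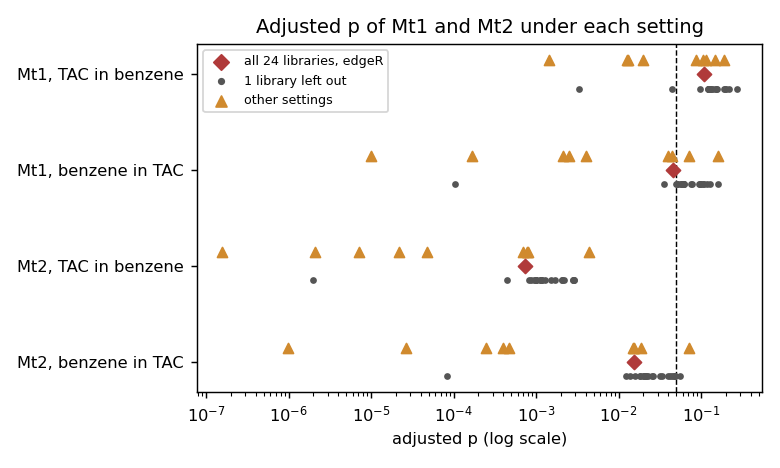
Adjusted p of Mt1 and Mt2 in TAC against sham in benzene and in benzene against air after TAC, on a log scale; the diamond is the edgeR test on 24 libraries, dots leave out 1 library each, triangles are the other settings, and the dashed line is 0.05. Mt2 in TAC against sham in benzene stays left of the line in every setting shown. Each of the other rows has points on both sides. Mt2 for benzene against air after TAC is at 0.0552 by edgeR without TAC/Air replicate 5.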

How the data were processed

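Poly-A RNA of the left ventricle and septum was measured in 24 libraries, grouped by their titles. The authors deposited raw, whole-number counts of reads for each gene symbol. Tools listed in the submitters' processing notes are FastQC 0.11.9, STAR and DESeq2, with mm9 as the build. The sources used here do not give the counting program, annotation or strand setting. Antisense and overlapping genes may share reads.

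The members and gene lists were chosen with earlier results of these data known, so their counts and p-values are not independent evidence. Of 25229 genes, 5678 had no count, and 13571 passed edgeR's filter (minimum count 10, minimum total 15); the rest held 0.0747% of counts. The quasi-likelihood test of edgeR 4.0.16 (R 4.3.3), with TMM scaling and robust dispersion, used all 24 libraries and a mean for each group, with Benjamini-Hochberg adjustment over all tested genes and calls at an adjusted p under 0.05. The script was tested on simulated data. CPM values used TMM-scaled library sizes, and log2 CPM a prior count of 2.

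Named genes are the 6 members, up to 3 genes of each pathway list with the smallest p, and the 4 genes most like each of 4 members, leaving out unnamed gene models. Genes gained without Sham/Air replicate 1 were named after their values were seen. Pathway lists cover zinc, copper, iron, glucocorticoid, interleukin 6 and STAT3, and Nrf2 genes, and the 9 cell type lists are given by sums. Alternatives were DESeq2 1.42.0, limma-voom (limma 3.58.1), RLE size factors, other filters, a replicate block, a fit of only the 2 groups compared, GC content and length offsets (loess, span 0.5, longest GENCODE vM21 transcript, 98.5% of tested symbols matched), and each library left out. No replicate pair was a duplicate (lowest chi-square per gene 1.81). Promoters are from RefSeq, with 5 of 6 members matched.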

Additional observations from a re-analysis of the deposited data

Results flagged for a closer look

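In 28 groups of 6 libraries examined for a value far from its group, 5 such values were found, and chance gives about 1 in 20 groups. Mt1 was low in Sham/Air replicate 1, at 73.6 CPM against 167 to 188 CPM in the other 5. Mt2 was low in the same library, at 7.39 CPM against 26.0 to 31.5 CPM. Mt1 was high in TAC/Benzene replicate 4, at 335 CPM against 224 to 265 CPM in the other 5 of its group, where Mt2 was also at its highest, 83.4 CPM. Mt3 was high in Sham/Benzene replicate 1, at 1.58 CPM from 15 counts. Slc30a1 was high in TAC/Air replicate 4, at 54.0 CPM against 41.2 to 46.0 CPM. What sets these libraries apart was not tested.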

How the results depend on the processing

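The count of members called held in 24 libraries with DESeq2, RLE size factors and a mean of at least 1 CPM in all 5 comparisons, and no alternative called a member for benzene against air in sham or for the interaction. In TAC against sham in air, 1 member (Mt2) in place of 0 was called with GC content and length offsets, on 24 and on 23 libraries. In TAC against sham in benzene, the count of 1 became 3 with limma-voom and with the offsets on 23 libraries, and 2 with the offsets on 24 libraries or a fit of the 2 groups compared; leaving out 1 library gave 1 to 3. For benzene against air in TAC the count of 2 became 1 without the filter on low counts, where the adjusted p of Mt1 was 0.0707, and 0 to 2 with 1 library left out. It became 3, with Slc39a14 added, with limma-voom, with a fit of the 2 groups compared and with the offsets on 23 libraries. Mt2 in TAC against sham in benzene was called each time, at an adjusted p of 1.98e-06 to 0.00289 with 1 library left out. The cause of these shifts was not tested. The offsets on 23 libraries were chosen after seeing the data.

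Replicate numbers were not taken to pair the libraries, as 9 of 36 same-numbered pairs had a correlation over 0.1. All 9 were pairs of like surgery, 5 of 6 between TAC/Air and TAC/Benzene (-0.02 to 0.34) and 4 of 6 between Sham/Air and Sham/Benzene. A library's best match in the other group had its own number in 3 of 36 cases. No label says that a number marks a shared batch. With the replicate block, benzene against air in TAC called 0 members (adjusted p = 0.16 for Mt1 and 0.0715 for Mt2). The differences in Mt2 share, 4.73, 6.71 and 3.75 points, then had adjusted exact permutation p-values of 0.0833, 0.0625 and 0.0625. The blocked permutation has 64 splits and cannot give a p under 0.0313. The differences of 6.71 and 3.75 points were at that floor before adjustment, so their adjusted values do not show weaker differences. With 1 library left out the 3 differences in share ran over 3.99 to 5.43, 5.92 to 7.14 and 2.97 to 4.18 points, and that of benzene in sham over 1.03 to 2.39.

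With all 24 or 23 libraries, only changes near 0 turned direction. With limma-voom, log2 changes in TAC against sham in air became -0.094 for Mt1 and 0.044 for Slc30a1. They became 0.0014 for Mtf1 in TAC against sham in benzene, and -0.034 for Mtf1 and 0.0077 for Slc30a1 for benzene in sham. For benzene in TAC Slc30a1 became -0.0048, and the interaction became 0.019 for Mtf1 and -0.013 for Slc30a1. Without the filter, Mtf1 (0.0074) and Slc30a1 (0.0047) turned in TAC against sham in air. With the offsets Slc30a1 became 0.019 in TAC against sham in air, 0.036 for benzene in sham and -0.0089 for the interaction; on 23 libraries, Mt1 became -0.041 in the first and Slc30a1 0.018 in the second. With 1 library left out, TAC against sham in air gave -0.094 to 0.094 for Mt1, -0.050 to 0.034 for Mtf1 and -0.063 to 0.047 for Slc30a1. Slc30a1 ran from -0.032 to 0.076 in TAC against sham in benzene, -0.076 to 0.041 for benzene in sham, -0.031 to 0.062 for benzene in TAC and -0.031 to 0.087 for the interaction. Mtf1 ran from -0.035 to 0.10 for benzene in sham and -0.092 to 3.1e-04 for benzene in TAC, and the Slc39a14 interaction from -0.0021 to 0.14.

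Over all genes, calls for benzene against air in TAC numbered 79, with 46 to 603 under the alternatives. The alternatives counted here keep every library, fit only the 2 groups compared, or drop Sham/Air replicate 1 with offsets. In TAC against sham the calls numbered 2193 in air (1278 to 4330) and 2257 in benzene (1951 to 4877). For benzene in sham they numbered 3 (1 to 33) and for the interaction 23 (14 to 180). The 15 or fewer counts of Mt3 limit what can be seen of it.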

Other observations

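Some other metal and antioxidant genes were called with TAC, where 8.81% of all tested genes were higher and 7.35% lower in air, and 8.67% and 7.97% in benzene. Of 11 tested iron handling genes, 0 rose and 2 fell with TAC in air and 0 rose and 2 fell in benzene, with list medians of -0.06 and -0.13. Slc40a1, the iron exporter ferroportin, fell in both, with log2 fold changes of -0.77 ± 0.13 in air (edgeR adjusted p = 7.12e-05) and -0.84 ± 0.12 in benzene (edgeR adjusted p = 1.59e-05). Its mean was 33.6 ± 7.28 CPM in Sham/Air and 19.6 ± 2.21 CPM in TAC/Air, and without Sham/Air replicate 1 the change in air was -0.68 ± 0.11. Hamp, which encodes hepcidin, the hormone that removes ferroportin from the cell surface, fell in benzene (-2.65 ± 0.49, edgeR adjusted p = 2.75e-04), at the low means of 1.51 and 0.241 CPM. Fth1, the ferritin heavy chain, fell in air (-0.63 ± 0.17, edgeR adjusted p = 0.0114), with -0.32 ± 0.08 without Sham/Air replicate 1, which held 4643 CPM of it. In benzene the Fth1 change was -0.33, which did not pass (edgeR adjusted p = 0.219). Without that library it was -0.33 ± 0.07 in benzene and was called (edgeR adjusted p = 8.72e-04). In the 23 other libraries 3 genes fell in air, and 1 rose and 3 fell in benzene. Benzene against air and the interaction called 0 of the 11, also with DESeq2 and limma-voom. At an unadjusted edgeR p under 0.05 it was 0 for benzene in TAC, 2 for benzene in sham and 2 for the interaction.

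Of 9 tested copper handling genes, 0 were called with TAC in air (2 at an unadjusted edgeR p under 0.05, 0 with DESeq2, and 2 higher and 2 lower with limma-voom) and 1 fell in benzene, Commd1 (-0.28 ± 0.09, edgeR adjusted p = 0.0338), with list medians of -0.05 and -0.20. Without Sham/Air replicate 1, 2 rose in air, and 1 rose and 1 fell in benzene. Of 13 tested Nrf2 antioxidant genes, 2 rose and 2 fell with TAC in each exposure, with list medians of 0.06 and 0.05. Srxn1, which encodes sulfiredoxin, rose by 0.62 ± 0.11 in air and 0.59 ± 0.11 in benzene, and Gsta3, a glutathione transferase, fell (-0.88 ± 0.19 and -0.72 ± 0.18), all on the log2 scale. Leaving out Sham/Air replicate 1, the changes in air were 0.51 ± 0.07 for Srxn1 and -0.81 ± 0.18 for Gsta3. Benzene against air and the interaction called 0 of the copper and 0 of the Nrf2 genes. At an unadjusted edgeR p under 0.05 it was 0 copper genes and 1 Nrf2 gene in each of these comparisons. DESeq2 called 0, and limma-voom called 0 copper genes and 1 Nrf2 gene each for benzene in TAC and for the interaction. The edgeR test without Sham/Air replicate 1 also called 1 Nrf2 gene, Cat (catalase), for benzene in TAC and for the interaction.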
